A study of Mus musculus with 9 samples.

Results

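The insulin-like growth factor axis was followed through 10 genes chosen by name: the ligand *Igf2*, the receptors *Igf1r* and *Insr*, the docking proteins *Irs1* and *Irs2*, and the binding proteins *Igfbp2*, *Igfbp3*, *Igfbp4*, *Igfbp5* and *Igfbp6*. Each matched 1 of the 23332 gene rows by its symbol, and 5 of them (*Igf1r*, *Insr*, *Irs1*, *Irs2* and *Igfbp5*) were among the 11339 rows that reached 1 FPKM in at least 3 samples and were tested. FPKM count fragments relative to the length of the transcript and to the depth of the sample, so that levels of different genes can be compared. RNA came from FVB MOE cells, a monoclonal line of murine oviductal epithelial cells that the study's methods describe as secretory. All samples were hormone starved for 48 h in medium without phenol red and with charcoal stripped serum, and then received for 24 h either 0.1% DMSO as the solvent, 1 nM 17-beta-estradiol (E2) or 100 nM 4-hydroxytamoxifen (4OHT), an active metabolite of tamoxifen that binds the estrogen receptor. There were 3 samples per condition, numbered 1 to 3 in the labels. The maintenance medium of this line holds insulin, epidermal growth factor, transferrin and E2, whereas the starvation medium listed in the labels names none of them as an addition. What its stripped serum carried of them, or of IGFs, is not given. The labels do not say that the samples of a condition were separate cultures, so that p-values measure the spread between these samples, which may be technical.

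IGF1, IGF2 and insulin act through 2 related receptor tyrosine kinases, IGF1R and INSR. The activated receptors phosphorylate IRS1 and IRS2, which recruit PI3K and so engage AKT, mTOR and the FOXO transcription factors, while the adaptors SHC1 and GRB2 engage RAS and ERK. Binding proteins outside the cell hold IGFs and limit their access to the receptors, and proteases that cleave them release the ligand. In estrogen target tissues the axis is known as a partner of estrogen signaling, because estrogen can change the amounts of ligand, receptor and docking protein.

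A stretch of the promoter is shown for the docking protein genes *Irs2* and *Irs1* and for *Igf1r*, with the motifs that were searched. Sequences are from RefSeq on GRCm38.p6 and run 5′ to 3′ on the strand of the gene. The RefSeq table used here held a promoter for 9 of the 10 members, *Insr* being the exception. Distances are counted from the RefSeq start, which for the genes shown lies upstream of the GENCODE gene span given below. The windows are therefore further from the ends of those spans than the distances say. Capitals mark CACGTG (the E-box), TGTTTTG (a spelling of the insulin response sequence that FOXO factors bind) and, in *Igf1r*, the complement of GGTCA (the core of an estrogen receptor site). The motifs were chosen after the promoters had been read, and both strands of the 250 bases before each start were searched.
*Irs2*, chr8:11008944-11008993, minus strand, 64 to 15 bases before the start: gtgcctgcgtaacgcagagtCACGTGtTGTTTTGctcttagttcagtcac
*Irs1*, chr1:82291525-82291574, minus strand, 135 to 86 bases before the start: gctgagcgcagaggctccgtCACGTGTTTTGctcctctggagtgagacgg
*Igf1r*, chr7:67952151-67952200, plus strand, 106 to 57 bases before the start: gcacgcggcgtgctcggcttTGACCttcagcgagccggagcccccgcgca
In *Irs2* the E-box and TGTTTTG stood 1 base apart, and in *Irs1* they overlapped. Across all 32851 promoters 6.02% held CACGTG, 5.56% held TGTTTTG and 0.295% held both. GGTCA was in 35.2% of promoters, once in that of *Igf1r* and not in those of *Irs1* and *Irs2*. The palindromic estrogen response element was in 0.0639% of promoters and in none of the 13 promoter entries of the members. These matches describe the letters of the windows only.

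The receptor and docking protein transcripts were present in all samples, and the ligand and most binding protein transcripts were near the limit of detection. By mean FPKM over the 9 samples the order was *Igf1r* at 16.4, *Insr* at 6.07, *Irs2* at 5.95, *Irs1* at 2.55, *Igfbp5* at 1.28, *Igfbp6* at 0.339, *Igfbp2* at 0.213, *Igf2* at 0.0223 and *Igfbp4* at 0.0220. *Igfbp3* was listed at 0 in all 9 samples. Among neighbours in that order, *Insr* and *Irs2*, *Irs1* and *Igfbp5*, *Igfbp5* and *Igfbp6*, *Igfbp6* and *Igfbp2*, and *Igf2* and *Igfbp4* had overlapping ranges over the samples, while *Igf1r* lay above *Insr*, *Irs2* above *Irs1* and *Igfbp2* above *Igf2* in every sample. The mean of *Igf1r* stood at percentile 55.8 of the means of the tested genes, that of *Irs1* at percentile 11.6.

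**Figure D1:**
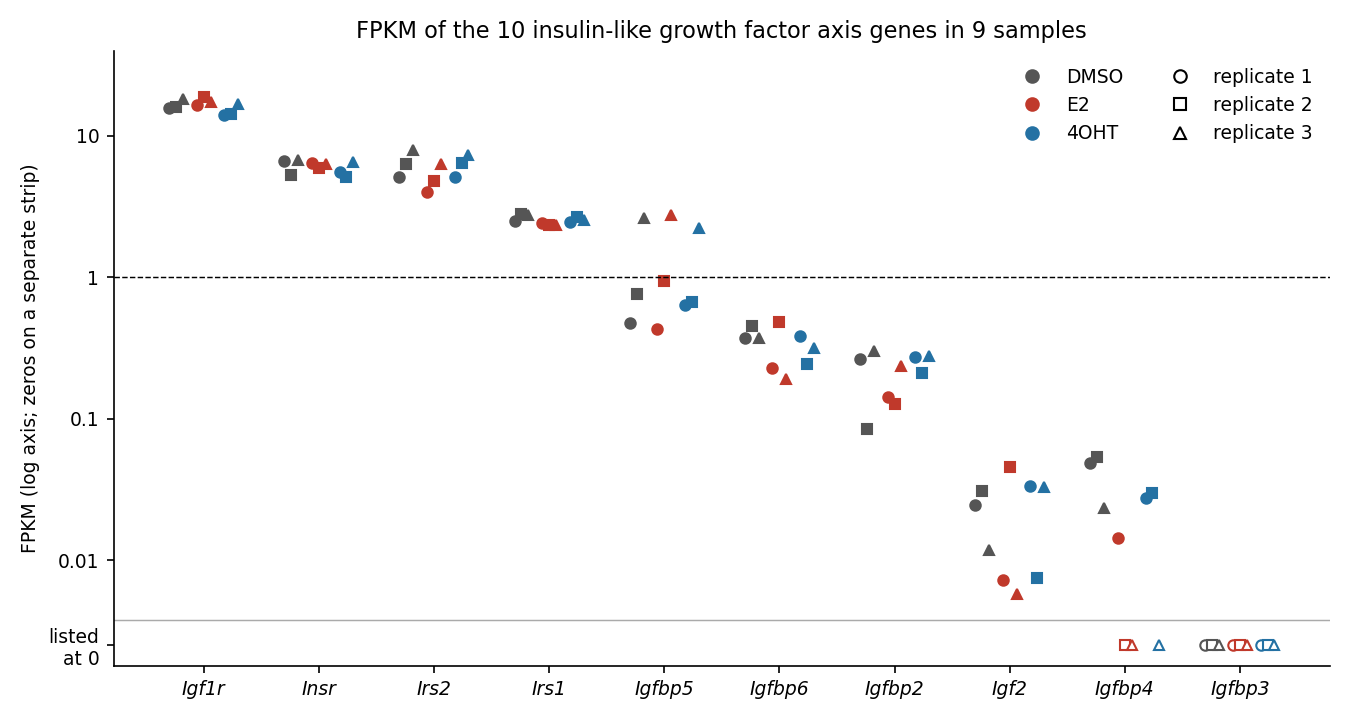
FPKM of each of the 10 genes (x axis, ordered by level) in each of the 9 samples (log y axis), with colour for the condition and shape for the replicate number. The dashed line is the 1 FPKM limit of the filter, and open symbols on the strip below the grey line are values listed at 0, which are all 9 samples of *Igfbp3* and 3 of *Igfbp4*.

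Depth was read back from the smallest steps of the FPKM, since where whole reads were counted a gene's values are whole multiples of what 1 read is worth. For 1976 of 3099 genes with low FPKM (63.8%) the 9 values were whole multiples within 0.1 of a read, and for the others the steps were not recovered. These steps gave 33.9 to 49.0 M reads per sample, and each 4OHT sample (0.817 to 0.920 relative to DMSO 1) was shallower than each DMSO sample (1 to 1.18), so that depth and 4OHT treatment cannot be told apart. Reads behind a member are approximate and, except for *Igf2* and *Igfbp4*, rest on the length of the longest transcript. They are too high where a shorter transcript prevails. The genes that set the scale put the depth of DMSO 1 at 34.4 to 47.3 M reads (quartiles). Reads were then about 5550 to 8984 per sample for *Igf1r*, 1615 to 2743 for *Insr*, 875 to 2181 for *Irs2*, 767 to 1261 for *Irs1* and 91 to 728 for *Igfbp5*. For *Igfbp6* they were 9 to 25, for *Igfbp2* 5 to 17, for *Igf2* 1 to 7 and for *Igfbp4* 0 to 5. Intervals on reads cover counting error only. As a check of the treatment, *Pgr*, a classical estrogen target, was at 9.58, 1.36 and 1.16 FPKM in DMSO samples 1, 2 and 3, at 38.1, 21.1 and 15.9 in the E2 samples and at 9.67, 3.67 and 2.39 in the 4OHT samples. *Greb1*, another estrogen target, was likewise higher in replicate 1 of DMSO and 4OHT, at 14.3 and 13.2 FPKM, than in replicates 2 and 3, at 2.30 to 3.76. *Esr1*, which encodes estrogen receptor alpha, was at 12.4 FPKM in replicate 1 of DMSO and at 5.98 in replicate 2. Of the secretory epithelium markers, *Pax8* was at 105 to 150 FPKM and *Krt8* at 334 to 623, *Ovgp1* was at 1.44 to 2.61, and the epithelial adhesion genes *Epcam* and *Cdh1* were at most 0.138 and 0.422. *Foxj1*, which marks ciliated cells, was present too (8.95 to 15.9). Of the immune markers, *Ptprc* was at most 0.0271 and *Cd3e* was listed at 0, while *Cd68*, a lysosomal protein gene of macrophages, was at 3.01 to 4.01. Of the endothelial markers, *Pecam1* was at most 0.0783 and *Cdh5* at most 0.100, while *Kdr* averaged 1.17 FPKM in E2, 0.599 in DMSO and 0.702 in 4OHT.

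*Igf1r*, at chr7:67952827-68233668 on the plus strand of mm10, encodes the type I receptor that carries the growth and survival signals of IGF1 and IGF2. Its FPKM in samples 1, 2 and 3 were 15.6, 16.1 and 18.2 in DMSO, 16.5, 18.7 and 17.5 in E2, and 13.9, 14.4 and 16.8 in 4OHT. The E2 values overlapped those of DMSO, and they overlapped those of 4OHT only through replicate 3 of 4OHT, which was above replicate 1 of E2. Within each replicate number E2 was above 4OHT, by 18.6, 30.3 and 4.16%. The log2 fold change of E2 against 4OHT was 0.22 (SE 0.087), with a limma adjusted p of 0.409, and with the replicate number as a block it had an SE of 0.060, an unadjusted p of 0.0112 and an adjusted p of 0.0586. With exact zeros of otherwise expressed genes taken as missing as well, the blocked adjusted p of *Igf1r* was 0.0347. Fold changes of the fits are on the log2(FPKM + 1) scale, which understates changes of low genes. Against DMSO the log2 fold change was 0.08 for E2 (95% interval -0.12 to 0.28, adjusted p = 0.767) and -0.14 for 4OHT (95% interval -0.34 to 0.06, adjusted p = 1.00), and 4OHT was below DMSO in 3 of 3 replicate numbers.

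*Insr*, at chr8:3122061-3279617 on the minus strand, encodes the insulin receptor, which can also pair with IGF1R to form hybrid receptors. Its FPKM in samples 1, 2 and 3 were 6.67, 5.30 and 6.78 in DMSO, 6.46, 5.92 and 6.35 in E2, and 5.57, 5.10 and 6.50 in 4OHT. The 3 conditions overlapped. The limma log2 fold change of E2 against DMSO was 0.00 with a 95% interval of -0.24 to 0.24 and an adjusted p of 0.995, and that of 4OHT against DMSO was -0.11 with an interval of -0.35 to 0.13 and an adjusted p of 1.00. Transcript of the type I receptor exceeded that of the insulin receptor in every sample. The *Igf1r* to *Insr* ratio of FPKM was 2.69 ± 0.344 in DMSO, 2.82 ± 0.307 in E2 and 2.63 ± 0.165 in 4OHT (SD, n = 3 each), and the conditions overlapped. In replicates 1, 2 and 3 the ratio was 2.34, 3.03 and 2.68 in DMSO, 2.56, 3.16 and 2.75 in E2, and 2.50, 2.82 and 2.58 in 4OHT. Within each replicate number it was highest in E2, a difference that was not tested.

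The transcripts of both docking proteins, *Irs2* and *Irs1*, were lower in E2 than in either other condition at every replicate number, that of *Irs2* by more. *Irs2* lies at chr8:10984681-11008458 on the minus strand and encodes the docking protein prominent in insulin signaling of the liver and in cell motility. Its FPKM in replicates 1, 2 and 3 were 5.15, 6.38 and 7.97 in DMSO, 3.99, 4.82 and 6.31 in E2, and 5.15, 6.46 and 7.29 in 4OHT. The conditions overlapped, because replicate 1 was lowest and replicate 3 highest in each of them, and the spread between replicate numbers was wider than the difference between conditions. Within replicate numbers 1, 2 and 3 the E2 value differed from DMSO by -22.7, -24.4 and -20.8% and from 4OHT by -22.6, -25.3 and -13.4%.

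**Figure D2:**
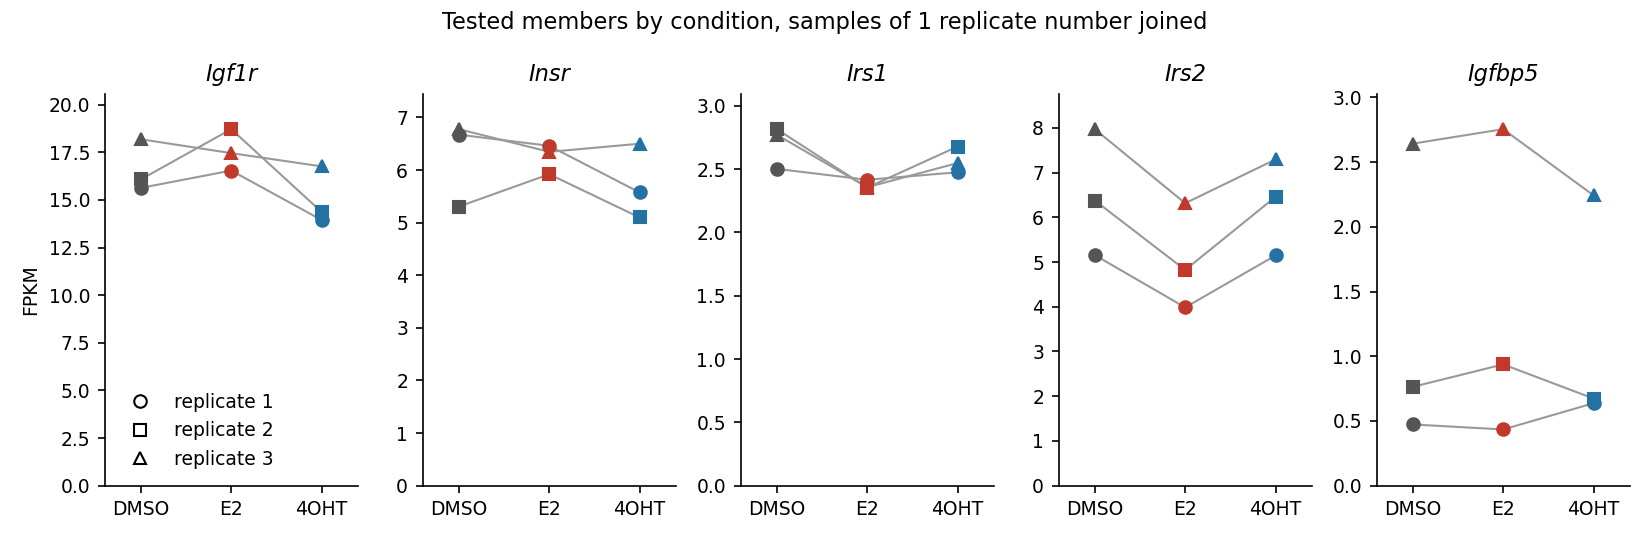
FPKM (y axis from 0, its own scale in each panel) of the 5 tested genes in DMSO, E2 and 4OHT, with samples of the same replicate number joined by a line. The 3 lines of *Irs2* run side by side with their low point at E2, and the replicate 3 line of *Igfbp5* lies above 2 FPKM in all conditions.

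Without the block the log2 fold change of *Irs2* between E2 and DMSO was -0.31 with an SE of 0.19, a 95% interval of -0.75 to 0.12 and a limma adjusted p of 0.604. With the replicate number as a block the SE was 0.043, the interval -0.42 to -0.21 and the adjusted p 0.00805. Against 4OHT the log2 fold change was -0.28, with an adjusted p of 0.542 without the block and 0.0139 with it (interval -0.39 to -0.18). The call with the block needed all 3 replicate numbers: with replicate 1, 2 or 3 left out, the adjusted p for E2 against DMSO was 0.0682, 0.0779 and 0.0746 at log2 fold changes of -0.32, -0.30 and -0.32, and for E2 against 4OHT it was 0.106, 0.114 and 0.0734. In 4OHT the transcript differed from DMSO by a log2 fold change of -0.03, with a 95% interval of -0.47 to 0.40 without the block and -0.14 to 0.07 with it. Replicate 1, where *Irs2* was lowest, was the replicate with the highest *Pgr* in every condition, and a link between them was not tested. Of the 4 ciliated cell markers found, *Foxj1* moved with *Irs2*, at 8.95 and 11.7 FPKM in E2 samples 1 and 2 with a mean of 11.2 over the 3, against 13.6 to 15.9 in DMSO and 14.3 to 15.6 in 4OHT, *Rsph1* went the other way, at 3.52 to 3.86 in E2 and 2.98 to 3.36 in the other samples, *Tppp3* overlapped between conditions at 1.18 to 3.38, and *Ccdc78* was at most 0.308. The endothelial marker *Kdr* was highest in E2 at every replicate number. The part of these markers in the *Irs2* difference was not tested, and in bulk RNA fewer cells of a type and less RNA per cell cannot be told apart. *Irs2* and the antisense gene *9530052E02Rik* overlap, and whether the authors' estimate used the strand of the reads is not given in the sources used here.

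*Irs1*, at chr1:82233101-82291416 on the minus strand, encodes the docking protein best known from growth signaling by IGF1R. Its FPKM in samples 1, 2 and 3 were 2.50, 2.82 and 2.77 in DMSO, 2.42, 2.35 and 2.36 in E2, and 2.48, 2.68 and 2.55 in 4OHT. All 3 E2 samples were below all samples of the other conditions, by a gap smaller than the range within DMSO. The log2 fold change of E2 against DMSO was -0.13 (SE 0.058), with a limma adjusted p of 0.477 without the block and 0.108 with it, and it did not pass the threshold of 0.05 in either fit. Groups of 3 that did not overlap were found for 15.2% of all tested genes between E2 and DMSO, for 18.3% between E2 and 4OHT and for 7.94% between 4OHT and DMSO, so that the separation of *Irs1*, 1 of the 5 tested members, was of a common kind.

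Binding protein transcripts of the members were low, and that of *Igfbp5* differed by replicate number. *Igfbp5*, at chr1:72857932-72874884 on the minus strand, encodes a binding protein that also attaches to the extracellular matrix. Its FPKM in replicates 1, 2 and 3 were 0.473, 0.764 and 2.64 in DMSO, 0.434, 0.937 and 2.76 in E2, and 0.637, 0.673 and 2.24 in 4OHT. Only the 3 samples of replicate 3 exceeded 1 FPKM, and the gene passed the filter through them. The limma log2 fold change of E2 against DMSO was 0.05, with an interval of -1.04 to 1.13 without the block and -0.17 to 0.27 with it. For 4OHT against DMSO it was -0.03, with an adjusted p of 0.889 with the block. *Col1a1*, which encodes a collagen of stromal cells and is listed here as a stroma marker, was at 4.57 to 6.73 FPKM in replicate 3 and at 1.84 to 3.17 in replicates 1 and 2. *Acta2*, a smooth muscle actin that cultured cells also express, was at 1414 to 1724 in replicate 3 and at 932 to 1301 in the others. The remaining stroma markers were near 0: *Col1a2* and *Col3a1* were at most 0.00974 and 0.00907, *Pdgfra* at most 0.111 and *Pdgfrb* at most 0.0524 in any sample. Their part in the *Igfbp5* difference was not tested.

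*Igfbp2*, whose end lies 5457 bases from *Igfbp5* at chr1:72824503-72852474 on the opposite strand, was also highest in replicate 3 of each condition. It rested on about 5 to 17 reads per sample, too few to compare its pattern with that of its neighbour. Its FPKM in samples 1, 2 and 3 were 0.266, 0.0844 and 0.303 in DMSO, 0.142, 0.128 and 0.236 in E2, and 0.272, 0.212 and 0.276 in 4OHT. *Igfbp6*, at chr15:102144362-102149511 and known for its preference for IGF2, was at 0.370, 0.451 and 0.375 in DMSO, 0.229, 0.485 and 0.192 in E2, and 0.386, 0.244 and 0.317 in 4OHT. Samples of all 3 conditions overlapped for both genes. Two-sided exact permutation p-values over 3 against 3 samples, which cannot go below 0.1, were 0.2 to 0.8 for *Igfbp2* and 0.3 to 0.9 for *Igfbp6*.

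*Igfbp4*, at chr11:99041244-99054392 on the plus strand, encodes a binding protein that holds IGFs until the protease PAPP-A cleaves it. It was at 0.0490, 0.0536 and 0.0234 FPKM in DMSO, at 0.0145 in replicate 1 of E2 and listed at 0 in the other E2 samples, and at 0.0274, 0.0300 and 0 in 4OHT. These values stand for 4, 5 and 2 reads in DMSO, 1 read over the E2 samples and 4 reads over the 4OHT samples, with a listed 0 counted as no read. The summed reads were 11 in DMSO (95% exact Poisson interval 5.49 to 19.7) and 1 in E2 (0.025 to 5.57). That these intervals narrowly meet is not a test of a difference. The exact permutation p of E2 against DMSO was 0.1, the smallest that 3 against 3 samples allow, so that it could not pass the threshold of 0.05. *Igfbp3*, at chr11:7206086-7213923 and in many cells the best known carrier of IGFs, was listed at 0 throughout. Some well expressed genes are also listed at 0 in single samples of these files, so that a listed 0 is not read as absence. Summed over the 5 binding protein members, FPKM were 0.820 to 1.55 in replicates 1 and 2 and 2.84 to 3.34 in replicate 3.

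Ligand transcript was near the floor. *Igf2*, at chr7:142650766-142666816 on the minus strand, encodes the fetal growth factor and is imprinted. Its FPKM were 0.0245, 0.0311 and 0.0118 in DMSO samples 1, 2 and 3, 0.00726, 0.0460 and 0.00580 in E2, and 0.0338, 0.00746 and 0.0328 in 4OHT, which is 12, 9 and 11 reads summed over the samples of each condition. The exact permutation p was 0.8 in each of the 3 comparisons. The gene overlaps *Igf2os* on the other strand and *Gm49394* on its own, so that these few reads cannot be given to it with certainty. Of the ligands outside the 10 genes, *Ins1* and *Ins2* were listed at 0 in all 9 samples. *Igf1* was at 0.0558, 0.121 and 0.447 FPKM in DMSO samples 1, 2 and 3, 0.0399, 0.0719 and 0.206 in E2, and 0.0208, 0.0950 and 0.222 in 4OHT. It was highest in replicate 3 of each condition, and E2 and 4OHT were below DMSO at every replicate number. The conditions overlapped, and the gene, which rested on about 6 to 136 reads per sample, was not tested. *H19* is the imprinted neighbour 72622 bases from *Igf2*. It was at 0.499, 0.0893 and 0.0894 FPKM in DMSO samples 1, 2 and 3, 0.102, 0.0623 and 0.0393 in E2, and 0.467, 0.0605 and 0.0981 in 4OHT. It was highest in replicate 1 of each condition and lower in E2 than in DMSO at every replicate number. The conditions overlapped, and *H19*, on about 4 to 47 reads per sample, was not tested. None of the 66 tested genes of the axis had a value of exactly 0 in any sample, and the zeros of *Igfbp3* and *Igfbp4* fell in genes that were at or near the floor everywhere.

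Over the members as a whole, few differences passed the test. Without the block, limma called 0 of the 5 tested members between E2 and DMSO, where 0.512% of all tested genes were called, 0 between E2 and 4OHT, where 0.159% were called, and 0 between 4OHT and DMSO, where 0% were called. At an unadjusted p under 0.05 there were 0, 1 and 0 members in these comparisons, the 1 being *Igf1r*. The estrogen targets *Pgr* and *Greb1* did not pass between E2 and DMSO in that fit either (limma adjusted p = 0.212 and 0.357). With the block both passed (0.00253 and 0.00525), so that 0 calls without the block are not read as no response. With the block, 1 of 5 (*Irs2*) was called lower in E2 than in DMSO, beside 4.63% of all tested genes called lower, 10.4% called higher and 15.0% in either direction. Against 4OHT, 1 of 5 (*Irs2* again) was called lower in E2, beside 7.60% of genes lower, 8.63% higher and 16.2% in either direction. A count of 1 in 5 lies near these shares and does not set the members apart. Between 4OHT and DMSO the block gave 0 of 5 and 0% of all genes, with a smallest adjusted p of 0.231 among 11339 genes and 1480 genes at an unadjusted p under 0.05. Without the block that comparison had 313 such genes. The median log2 fold change of the 5 tested members was 0.00 for E2 against DMSO and -0.05 for 4OHT against DMSO, and that of all tested genes was -0.00 and 0.03. E2 and 4OHT are compared with the same DMSO samples.

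**Figure D3:**
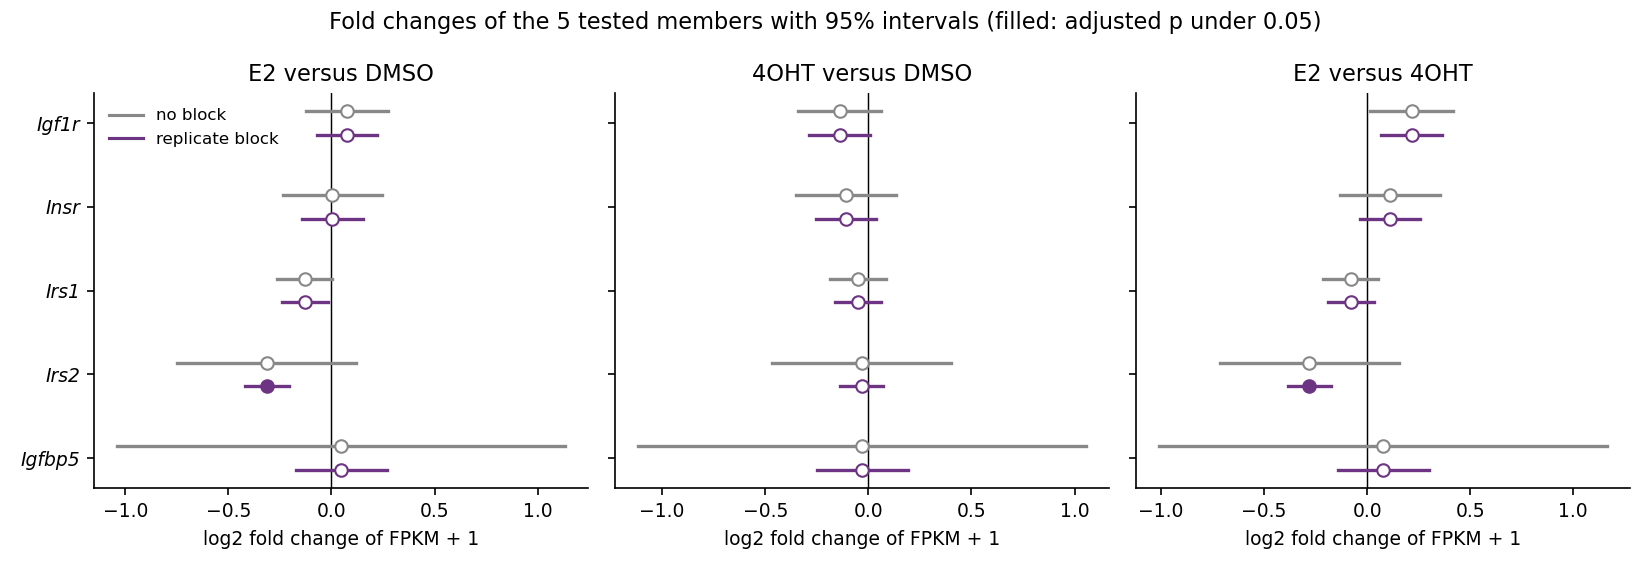
Log2 fold changes of FPKM + 1 (x axis) with 95% intervals for the 5 tested genes in the 3 comparisons, without the block (grey) and with the replicate number as a block (purple), filled where the adjusted p was under 0.05. *Irs2* is filled only with the block, in both comparisons that involve E2, and the interval of *Igfbp5* shrinks from -1.04 to 1.13 to -0.17 to 0.27 for E2 against DMSO.

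The genes whose pattern over the 9 samples was most like that of *Irs2* were *Sh3bp2* (Pearson r = 0.992 on log2(FPKM + 1)), *Glis2* (r = 0.990) and *Arl2* (r = 0.986), out of 11093 compared. The 9 points share conditions and replicate numbers, and the correlation is a description. *Glis2*, a zinc finger factor gene, was at 51.1, 57.5 and 70.9 FPKM in DMSO replicates 1, 2 and 3 and at 40.4, 47.2 and 59.0 in E2. Its order of replicates was that of *Irs2*, lowest in replicate 1 and highest in replicate 3.

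Around the 10 members, 79 further genes of the pathway were listed by role, of which 78 were found and 61 tested. Without the block *Ghr* was the 1 gene called between E2 and DMSO. With the block 11 of the 61 (18.0%) were higher in E2 than in DMSO and 0 were lower, beside the 10.4% and 4.63% of all tested genes. With replicate 1, 2 or 3 left out of that fit, 4, 4 and 1 of the 61 were called. Between E2 and 4OHT the block called 7 higher and 4 lower in E2, beside 8.63% and 7.60% of all tested genes, and 2, 3 and 1 in all with replicate 1, 2 or 3 left out. Between 4OHT and DMSO limma called 0 of 61 in both fits, with 1 gene at an unadjusted p under 0.05 without the block and 10 with it. The median log2 fold change of the 61 genes was 0.04 in each of the 3 comparisons.

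**Figure D4:**
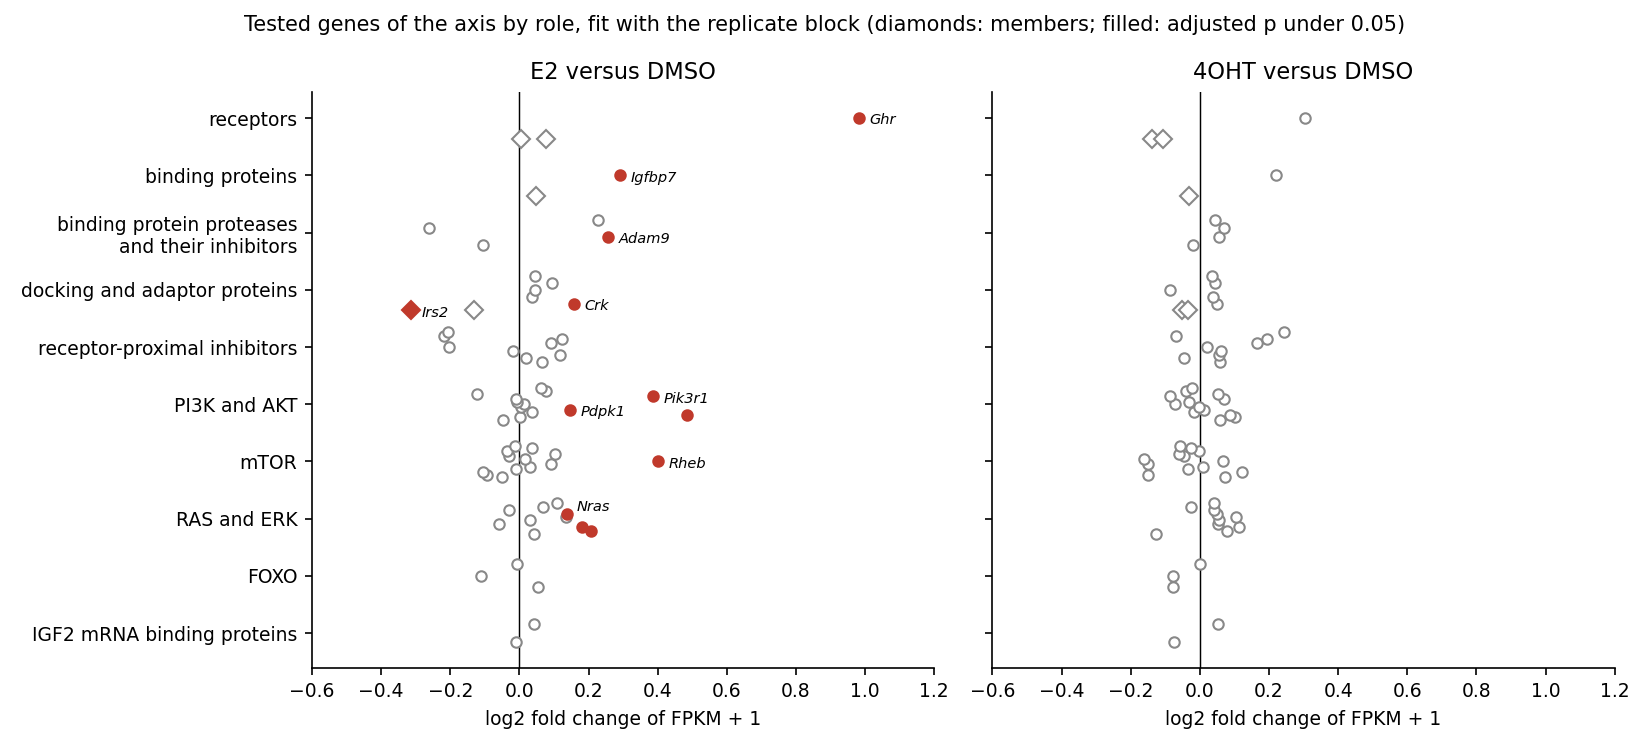
Log2 fold changes of FPKM + 1 (x axis) in the fit with the replicate block for E2 against DMSO and 4OHT against DMSO, with the tested genes arranged by role (y axis). Circles are the 61 further genes, diamonds the 5 tested members, and filled red symbols had an adjusted p under 0.05: 11 circles to the right of 0 and the *Irs2* diamond to its left for E2, and none for 4OHT. Not every filled circle carries a name.

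Of the receptors, *Ghr*, which encodes the growth hormone receptor that drives IGF1 production, was at 44.4, 39.8 and 36.8 FPKM in DMSO samples 1, 2 and 3, at 83.5, 81.1 and 76.5 in E2 and at 50.7, 51.6 and 47.3 in 4OHT. The 3 conditions did not overlap. It rose in E2 by a log2 fold change of 0.98 against DMSO (SE 0.075, limma adjusted p = 0.00439 without the block and 0.000303 with it) and by 0.68 against 4OHT (0.0296 and 0.00160). With a single sample left out and no block, the adjusted p of *Ghr* was 0.00545 to 0.0378 against DMSO and 0.0177 to 0.125 against 4OHT, where the call was lost without any of the E2 or 4OHT samples or without replicate 2 of DMSO. For 4OHT against DMSO the log2 fold change was 0.30 with adjusted p-values of 1.00 and 0.245. *Igf2r*, whose product clears IGF2 from the cell surface, was at 0.337 to 0.490 FPKM and not tested.

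Among the binding proteins outside the members, *Igfbp7*, a relative with low affinity for IGFs, was the most abundant transcript of the family here. It was at 873, 682 and 909 FPKM in DMSO, 1060, 830 and 1126 in E2, and 1043, 797 and 1030 in 4OHT. Its conditions overlapped, with E2 above DMSO in 3 of 3 replicate numbers. The log2 fold change of 0.29 had a limma adjusted p of 0.578 without the block and 0.00358 with it. The gene overlaps *Polr2b* on the other strand. Of 4 tested proteases of binding proteins and their inhibitors, *Adam9*, a membrane protease gene, was higher in E2 than in DMSO by 0.26 (adjusted p = 0.00397 with the block, 0.271 without). *Htra1*, a secreted serine protease gene, was lower in E2 than in 4OHT by a log2 fold change of -0.33 (0.0492 with the block, 0.621 without). *Adam12* differed by -0.10 between E2 and DMSO (0.107 with the block).

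Downstream of the receptors, 3 of 13 tested PI3K and AKT genes, 1 of 13 mTOR genes, 3 of 10 RAS and ERK genes and 1 of 5 further docking and adaptor genes were called higher under E2 than under DMSO with the block, beside the 10.4% of all tested genes called higher. None of these 8 genes passed without the block. Of the genes listed as receptor-proximal inhibitors, not all of which act at the receptor itself, 0 of 9 were called. The same held for 0 of 3 FOXO genes and 0 of 2 *Igf2* mRNA binding protein genes. *Pik3r1*, the regulatory subunit p85 alpha of PI3K that binds the docking proteins, was at 7.97, 6.34 and 6.38 FPKM in DMSO samples 1, 2 and 3, 10.6, 9.22 and 8.17 in E2, and 7.26, 6.11 and 5.90 in 4OHT. All E2 values were above all others. Its log2 fold change of E2 against DMSO was 0.39 (SE 0.12, adjusted p = 0.304 without the block; 0.00373 with it). *Pdpk1*, which activates AKT, differed by 0.15 (0.370 and 0.0303).

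*Rheb*, the small GTPase that activates mTORC1, was at 86.3, 85.0 and 88.2 FPKM in DMSO and at 121, 103 and 120 in E2, a log2 fold change of 0.40 (SE 0.066, limma adjusted p = 0.0560 without the block and 0.00697 with it), while the 4OHT samples were at 87.9, 90.3 and 93.8. *Eif4ebp1* and *Akt1s1*, which encode inhibitors of cap-dependent translation and of mTORC1, were lower in E2 than in 4OHT by log2 fold changes of -0.23 and -0.12 with the block (adjusted p = 0.0248 and 0.0415; 0.665 for both without). In the RAS arm *Nras* and *Map2k1*, which encodes the ERK-activating kinase MEK1, exceeded DMSO under E2 by 0.14 and 0.18 with the block (0.0216 and 0.0341). The adaptor gene *Crk* was higher by 0.16 (0.0246), and *Gab1* and *Grb2* differed from DMSO by 0.04 and 0.09 (0.508 and 0.116). On the list of receptor-proximal inhibitors, *Trib3* was lower in E2 than in 4OHT by -0.45 (0.0396 with the block, 0.736 without). *Socs3* and *Sh2b2* differed between E2 and DMSO by -0.22 and -0.20 (0.0856 and 0.108). *Foxo1*, *Foxo3* and *Foxo4* differed between E2 and DMSO by 0.05, -0.11 and -0.01 with the block, and *Igf2bp1* and *Igf2bp2* by -0.01 and 0.04, none of them past the threshold.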

How the data were processed

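Poly-A RNA was sequenced as 50 bp single reads from 9 samples of FVB MOE cells, with libraries that the study's methods describe as directional. Per the study's methods and the submitters' processing notes, the authors aligned reads to mm10 with TopHat2 2.0.8b and estimated the deposited FPKM of each gene from a UCSC annotation with Cufflinks and Cuffdiff 2.1.1. A further scaling between libraries is not given in the sources used here, nor is the use of strand in the FPKM estimate. Rows were matched by gene symbol. Groups and replicate numbers came from the labels. On log2(FPKM + 1), genes with at least 1 FPKM in at least 3 samples were tested with limma 3.58.1 (R 4.3.3, variance trend, all 9 samples), with Benjamini-Hochberg adjustment over 11339 genes within each comparison and a threshold of 0.05. This follows the unpaired comparisons of the study.

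A second fit had the replicate number as a block. Same-numbered samples deviated together from their condition means, with correlations of 0.0527 to 0.293 for the 9 pairs over all tested genes and of 0.523 to 0.828 over the 11094 without an exact 0, where 9 of 9 samples correlated best with their own number. With the exact zeros set apart, the numbers were therefore taken to pair the samples, although the labels do not say what a number stands for, and blocked values stand beside results whose call they change. The members that were not tested were compared by two-sided exact permutation over samples. All 10 members are named, and of the other lists at most 3 genes per role, those with the smallest adjusted p in the blocked fit over any comparison, besides ligands and *Igf2r*, named for their role, *H19*, and *Pgr*, *Greb1* and *Esr1* as controls. Results of 3 genes of the pathway and marker lists are not reported here by name. The members and lists were chosen with earlier results of these data known. Likeness to *Irs2* was Pearson's r among tested genes with no exact 0. Relative depth came from the steps of FPKM under 0.15 and was scaled with 450 genes of 1 transcript in GENCODE M21, whose coordinates on GRCm38, the assembly of mm10, are given. Fits and depth steps were tested on simulated data. Alternative settings were 0.1 as the pseudocount, no filter, upper-quartile scaling, equal FPKM totals, no variance trend, the 6 samples compared alone, exact zeros as missing, the block, a threshold of 0.01 and each sample or replicate number left out.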

Additional observations from a re-analysis of the deposited data

How the results depend on the processing

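With the replicate number as a block, and with the block after upper-quartile scaling, 1 of the 5 tested members was called between E2 and DMSO and 1 between E2 and 4OHT, in place of 0. With exact zeros in otherwise expressed genes taken as missing together with the block, 1 and 2 were called, the second being *Igf1r* between E2 and 4OHT at an adjusted p of 0.0347. With 1 replicate number left out under the block, and with each sample left out without it, 0 members were called in each comparison. Under every alternative tried *Irs2* kept its negative direction for E2 against DMSO and against 4OHT, from -0.46 to -0.18 and from -0.43 to -0.15 on the log2 scale with a sample left out. The sign of *Insr* for E2 against DMSO was not determined: its log2 fold change was -0.018 after upper-quartile scaling with and without the block and after equal FPKM totals, -0.061 with the block and without replicate 2, and -0.094 to 0.058 with a sample left out. *Irs2* for 4OHT against DMSO was 0.0072 with the block and without replicate 3, and -0.17 to 0.10 with a sample left out. *Igfbp5* was 0.038 for that comparison with the block and without replicate 3, and with a sample left out it was -0.34 to 0.44 for E2 against DMSO, -0.35 to 0.36 for 4OHT against DMSO and -0.31 to 0.40 for E2 against 4OHT. The cause of these changes was not tested. Over all tested genes the calls between E2 and DMSO, 58 without the block and 1702 with it, were 542, 305 and 155 with the block and without replicate 1, 2 and 3, and 8 to 50 with a sample left out. Between E2 and 4OHT they were 18 and 1840, and 0 to 23 with a sample left out. The other axis genes called between E2 and DMSO were 1 and 11. Every change of scaling moved the median of all tested genes by less than 0.1 on the log2 scale. *Igf2*, *Igfbp4*, *Igfbp2* and *Igfbp6* rest on at most 25 reads per sample, were not tested across genes and were not refitted under these settings.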
